A study of Rattus norvegicus with 10 samples.

Results

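Drd1, Drd2 and Drd3, which encode dopamine receptors, and Adora2a, which encodes the adenosine A2a receptor, were followed across 10 arrays of rat brain RNA. The members were all probe sets annotated to 1 of these 4 symbols alone, out of 4736 genes with such a probe set. They were 7 of the 8799 probe sets in the table: 3 for Drd1, 1 for Drd2, 2 for Drd3 and 1 for Adora2a. The arrays came from 5 dissected regions, the caudate putamen, nucleus accumbens, amygdala, prefrontal cortex and ventral tegmental area. Each region had 1 array of saline-treated control tissue and 1 of cocaine-treated tissue, so that a region held 2 arrays and a treatment 5. The sources used here do not give dose, route, duration, strain, age, sex or the number of rats behind an array.

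Dopamine acts on the D1 class of receptor, which couples to stimulatory G proteins and raises cyclic AMP, and on the D2 class, which includes D3, couples to inhibitory G proteins and lowers it. In the striatum, formed by the caudate putamen and the nucleus accumbens, most neurons are spiny projection neurons of these 2 classes. Direct pathway neurons carry the D1 receptor, and indirect pathway neurons carry the D2 receptor together with the A2a receptor, which couples to stimulatory G proteins and opposes D2 signalling. The D3 receptor is known from the ventral striatum, and D2 receptors also sit on the dopamine neurons of the midbrain. Cocaine blocks the dopamine transporter and so raises dopamine outside the cell. Adenosine receptors are not a direct target of cocaine.

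The promoters of the dopamine receptor genes are shown because Drd1 and Drd2 moved together over the regions and the Drd3 probe sets did not. Each is 300 bases long, from 250 before to 50 after the annotated start, taken from RefSeq on the GRCr8 build. Of the 4 genes, 3 had an entry. Drd1 lies at chr17:10546354-10546653 on the plus strand, Drd2 at chr8:58605153-58605452 on the plus strand and Drd3 at chr11:70437744-70438043 on the minus strand. Capitals mark matches to the GC box, GGGCGG, on either strand (written as CCGCCC where it lies on the other strand).
Drd1: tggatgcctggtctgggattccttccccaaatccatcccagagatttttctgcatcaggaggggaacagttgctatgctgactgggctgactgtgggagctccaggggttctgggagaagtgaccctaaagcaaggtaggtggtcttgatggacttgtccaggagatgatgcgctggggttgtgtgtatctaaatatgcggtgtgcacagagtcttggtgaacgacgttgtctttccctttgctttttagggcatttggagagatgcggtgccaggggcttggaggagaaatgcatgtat
Drd2: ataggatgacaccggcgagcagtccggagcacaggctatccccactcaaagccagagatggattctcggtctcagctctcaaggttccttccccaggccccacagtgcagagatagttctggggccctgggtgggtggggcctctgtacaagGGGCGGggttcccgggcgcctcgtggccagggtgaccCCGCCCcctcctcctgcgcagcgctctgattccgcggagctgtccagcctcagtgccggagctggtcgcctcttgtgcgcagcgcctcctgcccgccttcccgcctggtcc
Drd3: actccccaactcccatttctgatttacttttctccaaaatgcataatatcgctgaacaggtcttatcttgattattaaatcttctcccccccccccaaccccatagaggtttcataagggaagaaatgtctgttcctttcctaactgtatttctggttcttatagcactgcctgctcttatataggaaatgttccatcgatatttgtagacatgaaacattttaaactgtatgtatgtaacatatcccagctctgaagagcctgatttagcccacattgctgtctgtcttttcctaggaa
The Drd2 window held 2 GC boxes, with first bases at offsets of -98 (plus strand) and -61 (minus strand) from the start. The other motifs searched on both strands were the TATA box, spelled TATAAA, the CCAAT box, and the half-site of the cyclic AMP response element, spelled TGACG. None of these was found in the 3 windows, and the Drd1 and Drd3 windows held no GC box. Among 33469 promoters of the same length, 33.1% held the GC box, 14.2% the TATA box, 37.5% the CCAAT box and 21.2% the half-site. GC content was 51.7% for Drd1, which is the median of all these promoters, 67.3% for Drd2, at their 87.9th percentile, and 39.3% for Drd3, at their 10.6th percentile. A match describes the letters of the window and is not a measured site of binding.

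The values are expression indices computed by dChip, software that models the signals of all probes in a set together, on a linear intensity scale. Array medians lay between 2208 and 2310. The correlation between the 2 arrays of a region was highest for the caudate putamen (r = 0.991) and nucleus accumbens (0.988), then the ventral tegmental area (0.977), and lowest for the prefrontal cortex (0.952) and amygdala (0.939). Of the 593 values listed at exactly 0, 226 were on the cocaine array of the prefrontal cortex, and none fell on the 7 receptor probe sets. An index of 1028, the 20th percentile of all values above 0, served as a floor for low values. Of 6 dopamine neuron markers tested, 2 were higher in the ventral tegmental area than in the other regions, where 11.1% of all probe sets were called. Th, which makes the precursor of dopamine, was 1.35 higher (log2, SE 0.09) there (limma, adjusted p = 0.000133), and Aldh1a1 1.31 (SE 0.18, adjusted p = 0.00302). The summed index of 6 cortical excitatory neuron markers was highest on the prefrontal arrays, at 82393 and 83508, against 20352 to 66884 on the other arrays.

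Drd1 had the widest range of the 7 probe sets. The index of its most abundant probe set, S46131mRNA_s_at, was 11001 with saline and 10904 with cocaine in the caudate putamen. The nucleus accumbens gave 8237 and 8166, and the amygdala 2759.58 and 3228. The prefrontal cortex gave 1081 and 698, and the ventral tegmental area 1049 and 846. All 4 striatal arrays were above all 6 others, with the lowest striatal value 2.53-fold over the highest amygdala value. Both cocaine arrays of the prefrontal cortex and ventral tegmental area lay below the floor and their saline arrays just above it, so in these regions this probe set was near the 20th percentile of the table, and ratios to them are compressed by the floor.

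The second Drd1 probe set, M35077_s_at, gave the same order of regions over a smaller range. Saline before cocaine, the caudate putamen read 3861 and 3699, the nucleus accumbens 3446 and 3216 and the amygdala 1621 and 1908. The prefrontal cortex held 1205 and 1149.5 and the ventral tegmental area 1270.5 and 1130.2, all 4 just above the floor. Its highest value was 3.42-fold its lowest, against at least 10.7-fold for the first probe set, taken to the floor, and the log2 values of the 2 probe sets correlated at r = 0.992 over the 10 arrays. The remaining one, S46131mRNA_r_at, had a mean index of 1435, at the 30.5th percentile of all probe sets, and was too dim to be tested. The caudate putamen read 2314.5 and 2433, the nucleus accumbens 1599 and 1860.5, and the amygdala 1150.2 and 1212. All 4 prefrontal and tegmental arrays, from 892 to 1026, lay below the floor. So all 3 probe sets ordered the regions from the caudate putamen to the nucleus accumbens to the amygdala, and none separated the last pair.

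**Figure D1:**
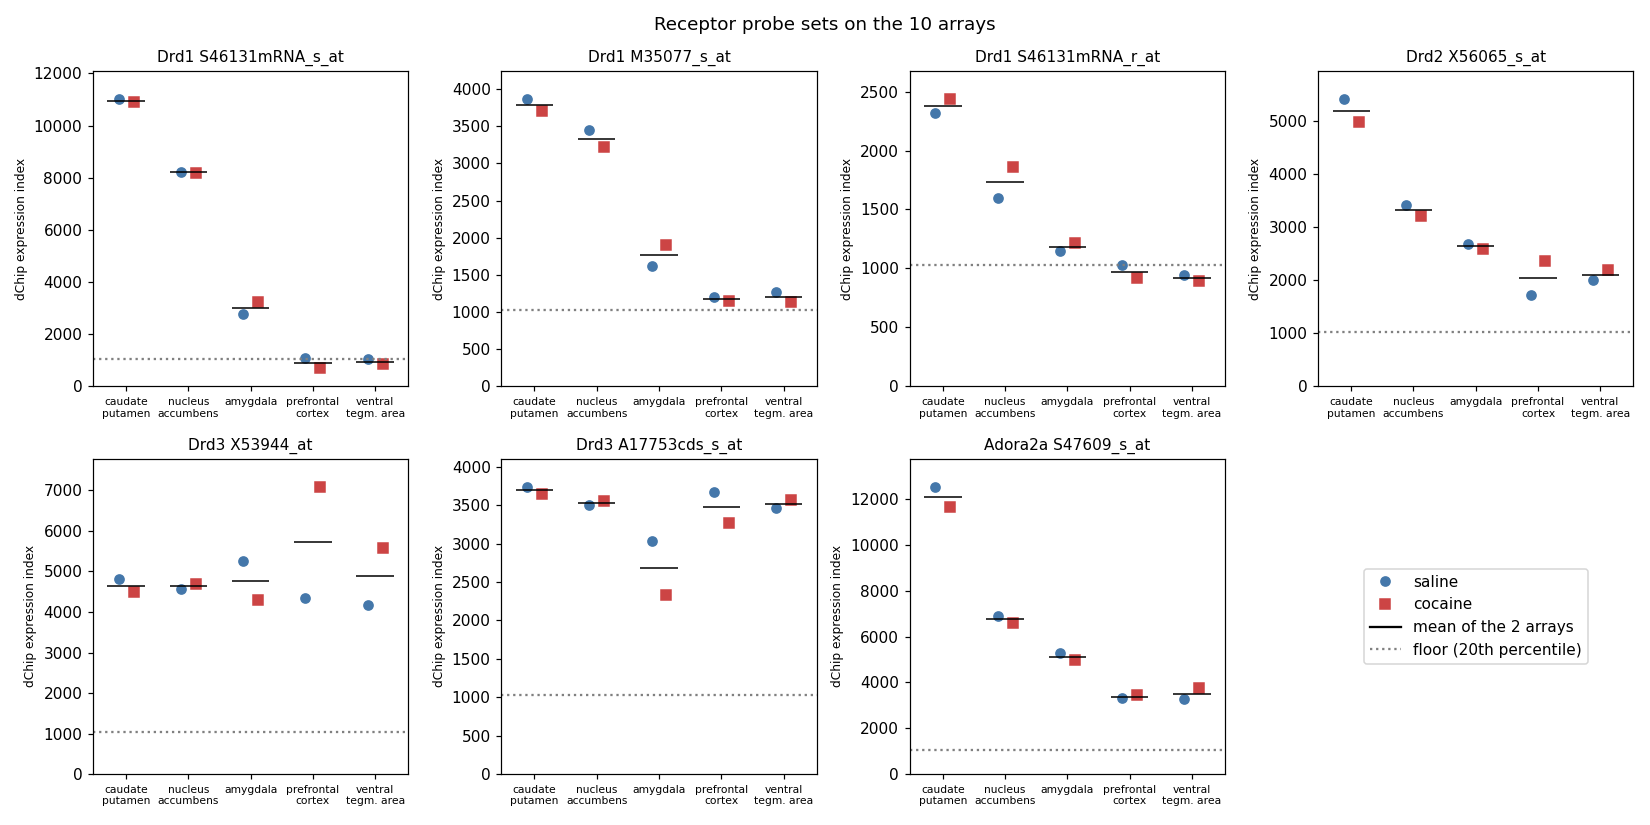
The dChip expression index (vertical axis, linear, from 0) of each of the 7 receptor probe sets on the 10 arrays, by region, with saline as circles, cocaine as squares, the mean of the 2 arrays as a bar and the floor of 1028 as a dotted line. Drd1, Drd2 and Adora2a step down from the caudate putamen to the prefrontal cortex and ventral tegmental area, where 2 of the 3 Drd1 probe sets reach the floor, and the Drd3 probe sets show no such step.

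Drd2, the inhibitory receptor of indirect pathway neurons and the autoreceptor of dopamine neurons, followed the same order with smaller steps. Its probe set, X56065_s_at, read 5405 with saline and 4977 with cocaine in the caudate putamen, and the nucleus accumbens gave 3419 and 3209.7. The amygdala read 2687 and 2592, the prefrontal cortex 1727 and 2355, and the ventral tegmental area 1996 and 2190.5. The 4 striatal arrays were again above all others, but the lowest of them was only 1.19-fold over the highest amygdala array. All 10 values were above the floor. The ventral tegmental area, where dopamine cell bodies lie, did not stand above the prefrontal cortex: the difference was 0.05 on the log2 scale (95% interval -0.29 to 0.40, limma adjusted p = 0.913).

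Adora2a, the stimulatory partner of Drd2 in indirect pathway neurons, was the brightest member, with a mean at the 86.4th percentile. Its probe set, S47609_s_at, read 12524 and 11648 (saline, cocaine) for the caudate putamen and 6902 and 6613 for the nucleus accumbens. The amygdala gave 5270.1 and 4968, the prefrontal cortex 3301 and 3431, and the ventral tegmental area 3269 and 3739. The caudate putamen was far above every other region, and the lowest accumbens value was 1.25-fold the highest amygdala value. Over the 10 arrays, log2 Adora2a correlated with log2 Drd2 at r = 0.983, more closely than with log2 Drd1 at 0.946, a description over arrays that share 5 regions.

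Drd3, the other inhibitory receptor, gave no common pattern from its 2 probe sets, whose log2 values correlated at r = 0.0489 over the 10 arrays. For X53944_at the caudate putamen read 4816 and 4483, the nucleus accumbens 4577 and 4683, and the amygdala 5255 and 4285.5. The prefrontal cortex read 4354 and 7081 and the ventral tegmental area 4176 and 5585, so that the cocaine array was the higher one in both. The 3 highest values, 7081, 5585 and 5255, were on the 3 arrays with the most probe sets listed at 0, which held 226, 120 and 91 of them against 8 to 42 on the others, and the part of this in the result was not tested.

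The second Drd3 probe set, A17753cds_s_at, lay between 3027 and 3733 on 9 arrays and at 2328 on the cocaine array of the amygdala. Neither probe set was highest in the nucleus accumbens. The region means of X53944_at ran from 4630.05 ± 75.1 in the nucleus accumbens to 5718 ± 1928 in the prefrontal cortex (SD, n = 2 arrays, 1 of each treatment), and every pair of neighbours in that order overlapped. Both means were well above the floor, but the 2 probe sets ranged by only 1.70-fold and 1.60-fold. Without probe sequences it could not be settled which of the 2 probe sets, if either, reads Drd3.

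Each region was then compared with the mean of the other 4 by limma, with treatment as a term and Benjamini-Hochberg adjustment over all 5232 probe sets tested. Of the 7 receptor probe sets 6 passed the filter on mean index and were tested. In the caudate putamen 4 of the 6 were higher, where 4.09% of all probe sets tested were called. Drd1 was 4.81-fold higher by its main probe set (log2 2.27, SE 0.08, limma adjusted p = 2.6e-05). By M35077_s_at it was 2.23-fold higher (log2 1.16, SE 0.10, limma adjusted p = 0.000783). Adora2a was 2.69-fold higher (log2 1.43, SE 0.08, limma adjusted p = 0.000155), which lies between the 2 Drd1 values. Drd2 was 2.10-fold higher (log2 1.07, SE 0.12, adjusted p = 0.00237), a call that was lost without either caudate putamen array (adjusted p = 0.0573 and 0.123). Both Drd3 probe sets missed the threshold. The labels do not say whether arrays came from separate animals or pools, so the spread behind these p-values may be technical. A region had only 1 array of each treatment. The spread is thus how far each region's cocaine to saline difference departed from the mean one. It also holds any cocaine response that differs between regions. In whole tissue fewer cells of a type and less RNA per cell cannot be told apart.

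In the nucleus accumbens, against the mean of the other 4 regions, 2 of the 6 probe sets were higher, both of Drd1, where 0.535% of all probe sets were called. Drd1 was 3.35-fold higher by its main probe set (log2 1.75, SE 0.08, limma adjusted p = 0.000198) and 1.90-fold by M35077_s_at (log2 0.93, SE 0.10, adjusted p = 0.00828), and the second call was lost with all probe sets tested (limma adjusted p = 0.0885). Adora2a had a difference of 0.38 (log2, 95% interval 0.18 to 0.57) and Drd2 of 0.27 (-0.01 to 0.54), with limma adjusted p of 0.228 and 0.939. The comparison group holds the caudate putamen, which lowers each of these differences.

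In the amygdala none of the 6 passed, where 0.612% of all probe sets did. The smallest p was that of Drd3 A17753cds_s_at, with a log2 difference of -0.42 (limma adjusted p = 0.153). In the prefrontal cortex 4 of the 6 were lower, where 5.01% of all probe sets were called. The same 4 were lower in the ventral tegmental area, where 11.1% were called. Drd1 fell by 1.95 and 1.98 on the log2 scale in these regions by its main probe set, and Adora2a fell by 0.88 and 0.81. The other Drd1 probe set, M35077_s_at, was at -0.95 and -0.91, close to Adora2a. Drd2 fell by 0.63 and 0.56 (limma adjusted p = 0.0258 and 0.0202), and both calls were lost with all probe sets tested (limma adjusted p = 0.126 and 0.0940). The prefrontal call was also lost with zeros raised to the floor (0.0555) and without any 1 of the caudate putamen, accumbens or tegmental arrays or the prefrontal saline array (up to 0.131). The tegmental call was lost without either caudate putamen array, either tegmental array or the accumbens saline array (up to 0.218).

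**Figure D2:**
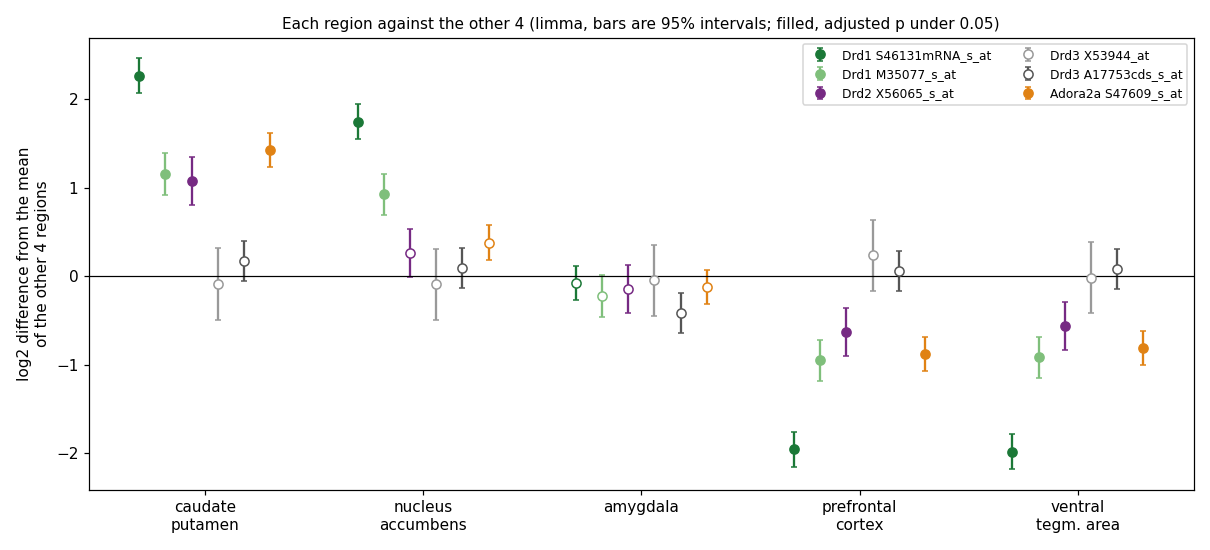
Log2 difference of each tested receptor probe set in a region from the mean of the other 4 regions (limma, vertical axis), with 95% intervals and filled points where the adjusted p was under 0.05. Drd1, Drd2 and Adora2a are filled and positive in the caudate putamen, only the 2 Drd1 probe sets are filled in the nucleus accumbens, and both Drd3 probe sets are open in all 5 regions.

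With both striatal regions set against the other 3, the same 4 probe sets were higher, where 3.73% of all probe sets were called. Drd1 was 6.39-fold higher (log2 2.67, SE 0.07, limma adjusted p = 1.4e-06), and M35077_s_at 2.62-fold (log2 1.39, SE 0.08, adjusted p = 7.1e-05). Adora2a was 2.30-fold higher (log2 1.20, SE 0.07, adjusted p = 6.0e-05) and Drd2 1.86-fold (log2 0.89, SE 0.10, adjusted p = 0.00232). Drd3 differed by -0.12 (95% interval -0.45 to 0.21) and 0.18 (0.00 to 0.37) for its 2 probe sets, neither past the threshold. When all probe sets were tested, the dim Drd1 probe set S46131mRNA_r_at was also called.

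Pairs of regions showed where the order of levels had a step. Against the prefrontal cortex, 4 of the 6 were higher in the caudate putamen, where 4.43% of all probe sets were called, and 3 in the nucleus accumbens, where 1.57% were. Against the ventral tegmental area the counts were 4 and 3, where 7.61% and 4.26% were called. Drd2 was called for the caudate putamen and missed the threshold for the nucleus accumbens (limma adjusted p = 0.0700 and 0.0510), which does not show that the 2 striatal regions differ in it. Against the caudate putamen, 4 of the 6 were lower in the amygdala, where 3.36% were called. Against the nucleus accumbens 2 were lower there, both of Drd1, where 0.497% were called. With all probe sets tested, the Drd2 call against the caudate putamen and the M35077_s_at call against the nucleus accumbens were lost (limma adjusted p = 0.0932 and 0.164).

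The amygdala held an intermediate place. It was above the ventral tegmental area for 3 of the 6, both Drd1 probe sets and Adora2a, where 6.29% of all probe sets were called. With all probe sets tested, the calls of M35077_s_at and Adora2a were lost (limma adjusted p = 0.118 and 0.0662). It was above the prefrontal cortex for 1, the main Drd1 probe set (log2 1.50, SE 0.11, limma adjusted p = 0.00144), where 0.172% were called. Between the prefrontal cortex and the ventral tegmental area none of the 6 passed, although 11.3% of all probe sets were called there. For Drd1, Drd2 and Adora2a the 2 arrays of these last regions overlapped.

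The caudate putamen and the nucleus accumbens themselves differed for 1 of the 6, where 0.765% of all probe sets were called. Adora2a was 1.79-fold higher in the caudate putamen (log2 0.84, SE 0.11, limma adjusted p = 0.0219). This call was lost with zeros raised to the floor (adjusted p = 0.0723), with all probe sets tested (0.0924) and without any of the 4 striatal arrays (up to 0.414). Drd2 was at 0.65 (SE 0.15, adjusted p = 0.140) and Drd1 at 0.42 (SE 0.11, adjusted p = 0.184), and both passed when either amygdala array was left out (adjusted p between 0.0428 and 0.0468). The 2 arrays of each region did not overlap for any of these 3 genes. Of 3 choroid plexus markers 1 passed this comparison: Ttr, a choroid plexus gene, was 3.47 higher (log2, SE 0.42, limma adjusted p = 0.0190) in the caudate putamen. The summed index of the 3 was 46768 and 20264 there against 8976 and 9284 in the nucleus accumbens. None of 5 oligodendrocyte markers passed, and their summed index was 118241 and 109332 against 85113 and 84044. Their part in the receptor difference was not tested.

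Direct and indirect pathway receptors were compared by the difference of their log2 indices on each array, which sets no probe set's level against another's but shows how the balance moved between arrays. Drd1 minus Drd2 was 1.08 ± 0.08 for the caudate putamen and 1.31 ± 0.06 for the nucleus accumbens (SD, n = 2). The amygdala was at 0.18 ± 0.20, the prefrontal cortex at -0.94 ± 0.37 and the ventral tegmental area at -1.01 ± 0.12. The 4 striatal arrays, at 1.03 to 1.35, did not overlap the other 6, at -1.20 to 0.32. The balance thus differed by 1.78 towards Drd1 in the striatal regions, with an exact two-sided permutation p of 0.00952, the smallest that 210 regroupings allow, and 0.0159 after adjustment over 5 such tests. Arrays of a region are not independent of each other, which neither this p nor those of the next receptor differences take into account. The striatal label goes with whole regions, 2 against 3, and regroupings that keep regions whole are too few to reach such a p.

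Drd1 minus Adora2a moved the same way, by 1.47 (exact permutation p = 0.00952, adjusted 0.0159). Its means ran from 0.28 (nucleus accumbens) and -0.14 (caudate putamen) over -0.78 (amygdala) to -1.67 (prefrontal cortex) and -1.75 (ventral tegmental area). Within the striatum the caudate mean minus the accumbens mean was -0.42, that is, further towards Adora2a in the caudate putamen, and on this measure the 2 regions did not overlap. For the indirect pathway receptors, Drd2 minus Adora2a differed by -0.31 between the striatal and the other arrays (exact permutation p = 0.00952, adjusted 0.0159).

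The size of the shift depended on the Drd1 probe set. With M35077_s_at, whose range was smaller, Drd1 minus Drd2 differed by 0.50 between striatal and other arrays (exact permutation p = 0.0190, adjusted 0.0238). The striatal arrays, at -0.485 to 0.011, overlapped the others, at -1.03 to -0.442. Its mean was 0.007 in the nucleus accumbens, -0.457 in the caudate putamen and -0.586 in the amygdala. Drd1 minus Adora2a then differed by 0.18 (exact permutation p = 0.257, adjusted 0.257), and the striatal arrays, at -1.70 to -1.002, overlapped the others, at -1.73 to -1.36. The larger shift of Drd1 relative to Adora2a was therefore seen with the brighter Drd1 probe set and not with the dimmer one. With M35077_s_at the caudate mean of Drd1 minus Adora2a, less the accumbens mean, was -0.66, of the same sign as with the brighter probe set.

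**Figure D3:**
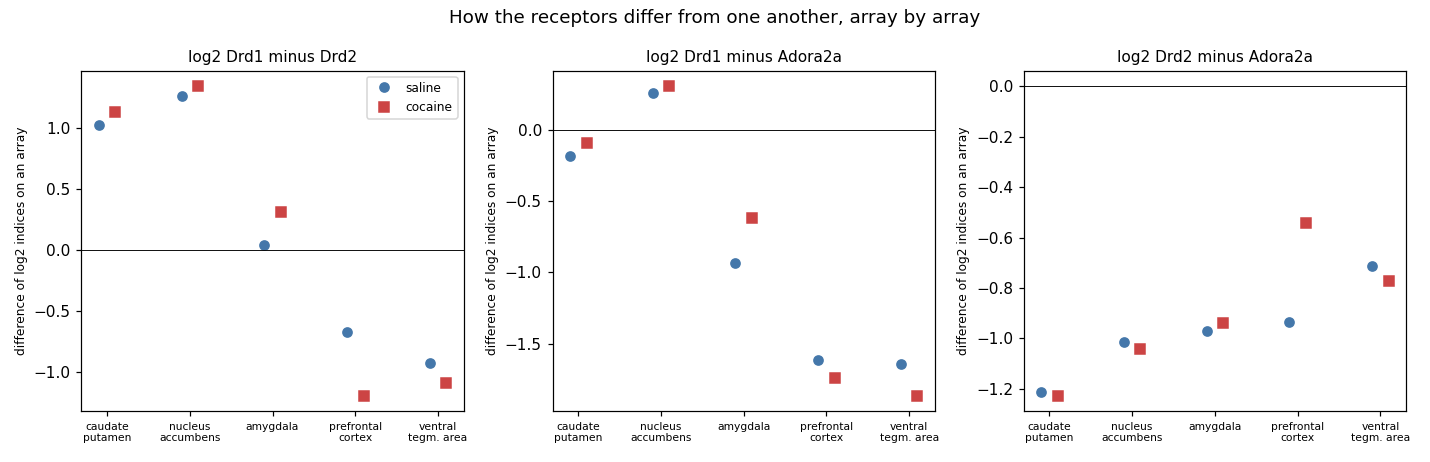
Difference of log2 indices between receptors on each array (vertical axis, log2 units), by region, with saline as circles and cocaine as squares, and Drd1 read by its main probe set. Drd1 minus Drd2 runs from 1.03 to 1.35 on the striatal arrays and from -1.20 to 0.32 on the others, Drd1 minus Adora2a is higher in the nucleus accumbens than in the caudate putamen, and Drd2 minus Adora2a moves over the narrowest range.

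Other genes of the 2 pathways were read from lists of known genes, which also hold Drd1, Drd2 and Adora2a themselves. Of 8 direct pathway genes, 6 were measured and 4 tested. In the striatal regions, where 3.73% of all probe sets were called, 2 were higher, Drd1 and Tac1, the precursor of substance P (log2 2.65, SE 0.15, limma adjusted p = 6.0e-05). Pdyn, the dynorphin precursor, was at -0.03 and the transcription factor Isl1 at 0.05, neither past the threshold. The Pdyn probe set read lay between 8489 and 10191 over all 10 arrays. Tac1, Pdyn, Isl1 and Chrm4 each have 2 probe sets, and the other one was not read. Chrm4, the M4 muscarinic receptor, and Ebf1 lay below the floor on all 10 arrays and were not tested. Below it, Chrm4 read 819 to 957 on the striatal arrays and 438 to 727 on the others, without overlap. Ebf1 read 215 to 295 and 173 to 412, with overlap. The list's median was 1.35, against -0.03 over all probe sets tested. It falls between Tac1 at 2.65 and Isl1 at 0.05, and none of the 4 tested genes lay near it. Drd1 is itself 1 of the 4, so only Tac1 adds to it among the genes called.

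Against the same share of 3.73%, all 3 tested of the 6 indirect pathway genes were higher: Drd2, Adora2a and Penk, the enkephalin precursor (log2 1.98, SE 0.06, limma adjusted p = 3.0e-06). The first 2 are the receptors already described, so only Penk adds to them, and the list's median of 1.20 is the Adora2a value itself. Gpr6 lay below the floor on all 10 arrays. Of the genes found in both classes of spiny neuron, 8 of the 9 tested were higher, with a median of 1.18. They were Arpp21, the phosphatase Ptpn5, the olfactory-type G protein Gnal that couples D1 and A2a receptors to adenylyl cyclase, Gng7, Rgs9, the adenylyl cyclase Adcy5, the phosphodiesterase Pde1b and Gad1. Their log2 differences lay between 0.56 and 2.41, and Gad2 was at -0.13 and not called. Gng7 and Arpp21 each have 2 probe sets and Adcy5 has 3, of which the list used only the most abundant.

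Between the caudate putamen and the nucleus accumbens, none of the 4 direct pathway genes and 1 of the 3 indirect pathway genes, Adora2a, passed the test, where 0.765% of all probe sets did. The Adora2a call is the one lost under the alternatives named above. The medians of the lists were 0.22 and 0.65 against -0.03 over all probe sets, and the second is the Drd2 value itself. Penk was at 0.42 (SE 0.10, limma adjusted p = 0.135) and Tac1 also at 0.42 (SE 0.23, adjusted p = 0.722). Of the 9 genes of both classes 2 were higher in the caudate putamen: Rgs9, which speeds the shut-off of inhibitory G proteins (log2 1.11, SE 0.13, adjusted p = 0.0190), and Ptpn5 (0.55, SE 0.09, adjusted p = 0.0421). Arpp21 was at 1.18 (SE 0.21, adjusted p = 0.0562). Which pathway the shared genes come from cannot be read from whole tissue.

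**Figure D4:**
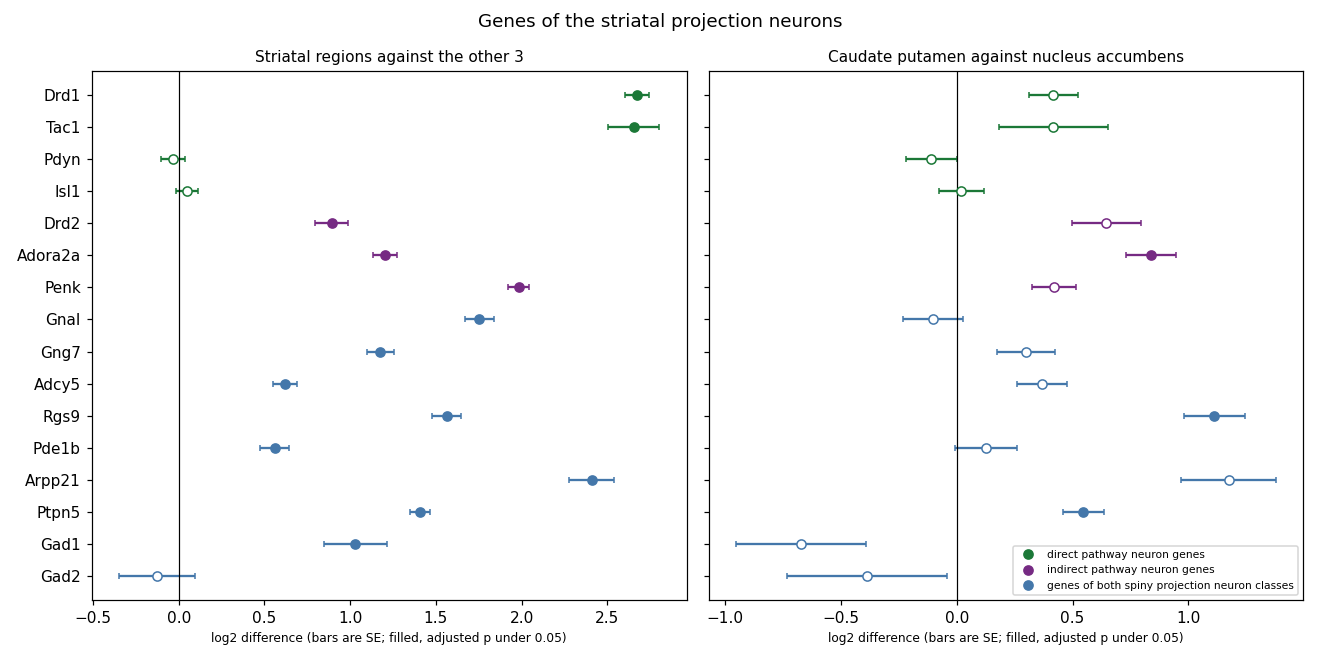
Log2 difference (horizontal axis) with its SE for genes of the direct pathway, of the indirect pathway and of both classes of spiny projection neuron, filled where the limma adjusted p was under 0.05. Drd1, Tac1, Drd2, Adora2a and Penk are filled in the striatal comparison on the left, and Adora2a, Rgs9 and Ptpn5 in the comparison of the caudate putamen with the nucleus accumbens on the right.

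Among 28 tested signalling partners of these receptors, 6 were higher and 2 lower in the striatal regions, where 3.73% of all probe sets were called, with a median of 0.00. The higher ones were Gnal, Gng7, Rgs9, Adcy5 and Pde1b, which the previous list also holds, and the phosphodiesterase Pde4b at 0.50. The lower ones were Gnas, the widely expressed stimulatory G protein, at -0.51 (SE 0.08, limma adjusted p = 0.0120), and the protein kinase A subunit Prkar1b at -0.60 (SE 0.08, adjusted p = 0.00726). The Gnas mean was 21080.2 in the caudate putamen against 38753 to 42016 in the other 4 regions, and 39057 in the nucleus accumbens, so its striatal difference came from the caudate putamen. Pde4b, Gnas and Prkar1b were named after their values were seen, to complete these counts. Gnas was also lower in the caudate putamen than in the nucleus accumbens, by a log2 difference of -0.89 (adjusted p = 0.0254), while Gnal was at -0.10 there (adjusted p = 0.962).

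The remaining dopamine and adenosine receptors showed no such steps. Of 5 listed, 4 were measured and 3 tested, and none passed the striatal test. The D4 receptor gene Drd4 lay between 5051 and 6220.1, the D5 receptor gene Drd5 between 2857 and 3321, and the adenosine A1 receptor gene Adora1 between 2396 and 3426. Their log2 differences were -0.02, 0.04 and -0.11 (limma adjusted p between 0.704 and 0.936). Adora2b, the other adenosine A2 receptor, lay between 840.5 and 1211, below the floor on 5 arrays, and was not tested. So the Drd3 probe sets shared a narrow range with those of Drd4, Drd5 and Adora1, which need not be the range of Drd3 itself.

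Markers of other cells that these dissections could hold gave the following in the striatal comparison. None of 5 oligodendrocyte, 4 astrocyte, 3 choroid plexus and 1 cholinergic interneuron marker passed. Of 6 dopamine neuron markers 1 was lower (Th, -0.47, limma adjusted p = 0.0142), and of 4 cortical excitatory neuron markers 2 were lower (Nrn1 and Cck, -1.32 and -0.81). Single regions against the other 4 gave calls. Of 5 oligodendrocyte markers 2 were higher in the caudate putamen (4.09% of all probe sets called). In the ventral tegmental area 4 were higher (11.1%), and in the prefrontal cortex 2 were lower (5.01%). Of 3 choroid plexus markers 1 each was higher in the caudate putamen, amygdala (0.612%) and ventral tegmental area. The nucleus accumbens had 1 lower (0.535%) and the prefrontal cortex 2. Their part in the receptor levels was not tested.

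The probe sets whose log2 values ran most like a receptor's over the 10 arrays were searched among 4052 with 1 symbol and a value on every array. Nearest to Drd1 were Ptpn5 (r = 0.987), Gnal (0.974), Gng7 (0.968), Gucy1a1 (0.965) and Gsto1 (0.960). Nearest to Drd2 were Rgs9 (0.989), Adora2a (0.983), Adcy5 (0.964), Actn2 (0.958) and Ptpn5 (0.952). Nearest to Adora2a were Rgs9 (0.994), Adcy5 (0.990), Drd2 (0.983), Ptpn5 (0.980) and Gsto1 (0.975). Each indirect pathway receptor was thus among the 5 nearest to the other, and Drd1 was among the 5 nearest to neither. The 10 points are 5 regions on 2 arrays each, so these values describe how like the region profiles are.

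The nearest to Drd3 shared no gene with the other receptors or between its own probe sets. For X53944_at they were C1qc (r = 0.983), Slc6a4 (0.964), Wdr74 (0.958), Cnnm4 (0.953) and Klf10 (0.952). For A17753cds_s_at they were Deaf1 (0.990), Cyp2f4 (0.981), Gjd2 (0.966), Cyp2c11 (0.957) and Cox8a (0.954). C1qc encodes a complement protein of microglia, Slc6a4 the serotonin transporter, and Cyp2c11 and Cyp2f4 are cytochrome P450 enzymes.

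Cocaine was compared with saline over the 5 regions, with region as the pair. None of the 6 receptor probe sets passed, where 0% of all probe sets were called by limma and 69 of 5232 had an unadjusted p under 0.05. Drd1 differed by 0.02 on the log2 scale (95% interval -0.14 to 0.18) and Adora2a by -0.00047 (-0.16 to 0.16). Drd2 differed by 0.06 (-0.15 to 0.28), and Drd3 by 0.15 (-0.17 to 0.47) and -0.10 (-0.28 to 0.08) for X53944_at and A17753cds_s_at. For Drd1 and Adora2a the intervals thus hold changes from 0.91-fold to 1.13-fold and from 0.90-fold to 1.11-fold, and say nothing of smaller ones. The Drd1 interval applies only to values after the floor, which raised the prefrontal and tegmental cocaine arrays of the main probe set. With a lower floor or none the Drd1 difference was -0.148 on the log2 scale, outside that interval. The direction differed between regions, with no test: the cocaine array was higher in 1 of 5 regions for both tested Drd1 probe sets, in 2 for Drd2 and Adora2a, and in 3 and 2 for the Drd3 probe sets. The untested Drd1 probe set S46131mRNA_r_at was higher with cocaine in 3 regions and at the floor on both arrays of the other 2.

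Within a region the ratio rests on 1 array of each treatment and has no test. In the caudate putamen and nucleus accumbens, all 6 tested probe sets lay within 0.12 of no change (log2), and 95% of all tested probe sets lay within 0.24 and 0.30 there. Drd2 was at -0.12 and -0.09 and Adora2a at -0.10 and -0.06 in these regions. In the amygdala both Drd1 probe sets were higher with cocaine, at 0.23 and 0.24, and both Drd3 probe sets lower, at -0.29 and -0.38, where 95% of probe sets lay within 0.73.

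In the prefrontal cortex Drd2 was at 0.45 and Drd3 X53944_at at 0.70, where 95% of probe sets lay within 0.58, while the second Drd3 probe set was at -0.17. In the ventral tegmental area X53944_at was at 0.42, against 0.41 for 95% of probe sets, and A17753cds_s_at at 0.04. So X53944_at passed the range of most probe sets in 2 regions, and the second probe set of the gene did so in none. After the floor the main Drd1 probe set was at -0.07 (prefrontal cortex) and -0.03 (ventral tegmental area), and at -0.63 and -0.31 without it, which are ratios of values near or below the floor.

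**Figure D5:**
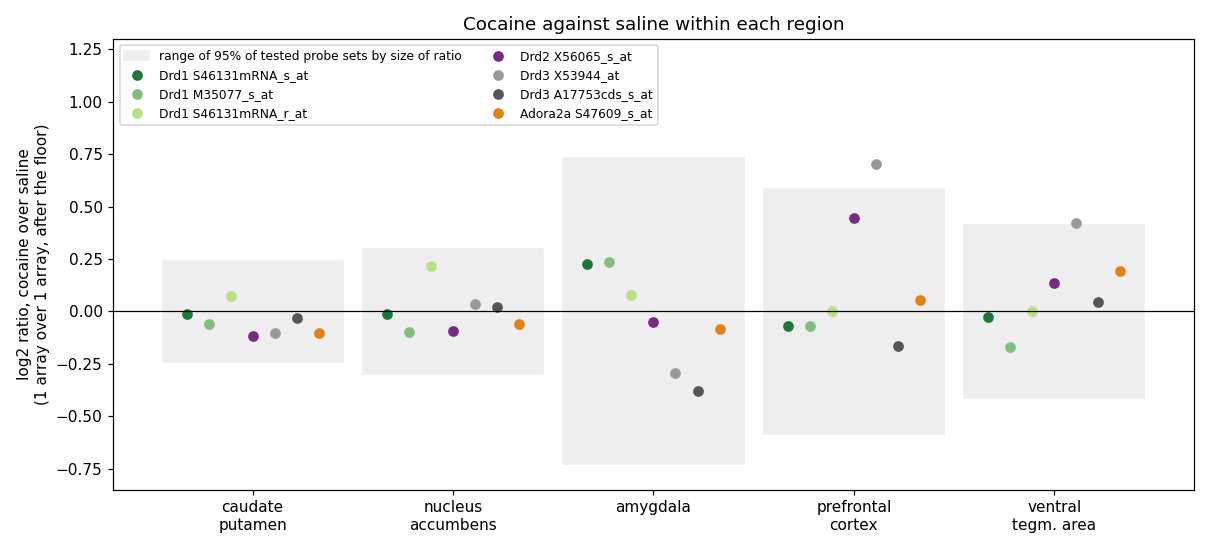
Log2 ratio of the cocaine array to the saline array within each region (vertical axis, after the floor) for the 7 receptor probe sets, with a grey band that holds 95% of all tested probe sets by size of ratio. The striatal ratios of the 6 tested probe sets lie within 0.12 of 0, the untested S46131mRNA_r_at is at 0.22 in the nucleus accumbens, and only Drd3 X53944_at leaves the band, at 0.70 for the prefrontal cortex and 0.42 for the ventral tegmental area.

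The cocaine response was also compared between the striatal and the other regions. None of the 6 passed, where 0% of all probe sets were called by limma and 16 of 5229 had an unadjusted p under 0.05. The largest differences were those of Drd3 X53944_at, at -0.31 (95% interval -0.998 to 0.377), and Drd2, at -0.28 (-0.72 to 0.16). Without the amygdala pair the Drd3 value was -0.60 and passed (limma adjusted p = 0.0432), while A17753cds_s_at had the opposite sign over all pairs, at 0.16. The balance of direct and indirect pathway receptors did not pass either: Drd1 minus Drd2 changed by -0.04 ± 0.31 with cocaine (-0.21 ± 0.55 without the floor) and Drd1 minus Adora2a by 0.02 ± 0.21 (-0.15 ± 0.43 without it) (SD, n = 5 pairs, exact sign-flip p = 0.8125 for both). With 5 pairs the smallest such p is 0.0625, so this test could not reach 0.05. None of the genes in the pathway, partner and marker lists passed the comparison with saline.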

How the data were processed

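RNA of 5 rat brain regions, each with 1 saline and 1 cocaine array, was measured as intensities (linear scale), deposited by the authors as expression indices of dChip, per the labels. The sources used here do not give its version, its model or how arrays were scaled. Groups came from the sample labels. Of 8799 probe sets, 59 controls were left out, and 7006 of the other 8740 carry 1 symbol (308 carry several) in the platform annotation. Values listed at 0 were treated as missing, values below the 20th percentile (1028) were raised to it, log2 was taken and the upper 60% of probe sets by mean were tested. limma 3.58.1 (R 4.3.3), with an intensity trend, was fitted to all 10 arrays with region and treatment as terms. Benjamini-Hochberg adjustment ran over all tested probe sets per contrast, at 0.05. Receptor differences per array had exact permutation tests (scipy 1.17.1). The code was tested on simulated data. The number of arrays limits the precision.

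The members and gene lists were chosen with earlier results of these data known. The most abundant probe set with a value on all 10 arrays stands for a list gene. Every probe set of the 4 receptor genes is named. So are all measured members of the pathway lists, up to 4 members of other lists with the smallest p, and the 5 probe sets nearest to each receptor by Pearson correlation. Alternatives were other floors, no filter, zeros raised to the floor, median and quantile scaling, no intensity trend, no treatment or block term, the other probe sets, and each array or pair left out.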

Additional observations from a re-analysis of the deposited data

Results flagged for a closer look

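In the 5 within-region ratios of cocaine to saline, the amygdala stood apart for both tested Drd1 probe sets. The log2 ratio of S46131mRNA_s_at was 0.226 there, against -0.07 to -0.01 in the other 4 regions. Without the floor the prefrontal and tegmental ratios of this probe set were -0.63 and -0.31, and the gap below the amygdala was then a smaller part of the range. That of M35077_s_at was 0.235, against -0.17 to -0.06. Each was marked because its gap to the nearest of the other 4 values was a large part of the whole range, which chance gives in about 1 in 20 such groups. The untested Drd1 probe set S46131mRNA_r_at was at 0.08 in the amygdala and at 0.22 in the nucleus accumbens. The 2 tested probe sets belong to the same gene and are read from the same arrays. Ratios in the amygdala were the most spread of all regions, with 95% of tested probe sets within 0.73.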

How the results depend on the processing

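The calls of Drd1, by its main probe set, and Adora2a in the caudate putamen, the prefrontal cortex, the ventral tegmental area and the striatal comparison, of that Drd1 probe set in the nucleus accumbens and of Drd2 in the striatal comparison held under every alternative run. By M35077_s_at the accumbens call of Drd1 was lost with all probe sets tested (limma adjusted p = 0.0885). Over all results 636 alternative values kept their direction and side of the threshold, 35 changed sign, 24 fell below the threshold, 5 passed it and 11 counts moved. Without 1 array at a time, where a lone sample of a region is assumed to vary like the other groups, the count of calls over the 5 regions ran from 9 to 15. That between the caudate putamen and nucleus accumbens ran from 0 to 3, and was 0 with zeros raised to the floor or all probe sets tested. There Adora2a ran from 0.773 to 0.903 (0.838 with zeros raised or all probe sets tested), Drd1 from 0.397 to 0.438, Drd2 from 0.532 to 0.761 and Drd3 from -0.154 to 0.164. Drd1 in the amygdala was 0.0276 with the floor at the 10th percentile or none, and ran from -0.206 to 0.0515 without 1 array.

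The difference with cocaine had no stable sign. Drd1 was at -0.148 with the lower floor or none and -0.0327 by M35077_s_at, and ran from -0.0315 to 0.0431 without 1 pair. Adora2a was at 0.0192 after quantile normalization and ran from -0.0490 to 0.0256, and Drd2 from -0.0320 to 0.110. The striatal minus other response of Drd1 was 0.226 with the lower floor or none and ran from -0.111 to 0.0378, and the count of calls from 0 to 1. Drd1 minus Adora2a changed by -0.147 without a floor and -0.0323 with M35077_s_at, and Drd1 minus Drd2 by -0.21 ± 0.55 without a floor. Drd3 by A17753cds_s_at instead of X53944_at was at 0.176 (caudate putamen), 0.0959 (accumbens), 0.0842 (tegmental area) and 0.181 (striatal comparison), -0.103 with cocaine and 0.160 in its difference. Without 1 array X53944_at ran from -0.244 to 0.0745 in the caudate putamen, -0.325 to 0.232 in the amygdala, -0.107 to 0.581 in the prefrontal cortex and -0.182 to 0.153 in the ventral tegmental area. The cause of these changes was not tested. The labels give no replicate numbers, so region served as the pair for cocaine. Leaving that term out changed no receptor's call, and none had been called with it.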
